A study of Mus musculus with 6 samples.

Results

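Genes of cholesterol synthesis and of its feedback control were compared between 2 fractions of regulatory T cells (Tregs) from mouse colon tumour tissue. The members were chosen by gene symbol: 5 enzymes of the pathway (Hmgcs1, Idi1, Fdft1, Sqle and Cyp51), the transcription factors Srebf1 and Srebf2, and Insig1, which holds their activation back. Of these 8 genes, 7 had a row among the 19494 genes tested, and the expression of Srebf1 was not analysed here. Each of the 7 had 1 row on the array. None of the 8 takes up low-density lipoprotein itself, so genes of lipoprotein uptake are described from a separate list.

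All mice carried the Foxp3-RFP and GPR15-GFP reporters, and colorectal cancer had been induced in all of them with azoxymethane, a carcinogen, and dextran sulfate sodium, an agent that inflames the colon. Lamina propria lymphocytes were released with collagenase and stained for CD4, and red cells were sorted as GPR15-GFP+ (3 arrays) or GPR15-GFP- (3 arrays). GPR15 is a homing receptor for the large intestine on T cells. The titles number the samples 1, 5 and 6 in both fractions, and the ages and sexes of the mice, the number pooled, and what the GPR15-GFP allele does to Gpr15 itself are not given in the labels. Values are log2 intensities from 1-colour Affymetrix arrays, differences are GPR15+ minus GPR15- in log2 units, and a gene counts as called at an adjusted p under 0.05.

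Cells make cholesterol from acetyl-CoA through mevalonate, isoprenoids, squalene and lanosterol. When sterols in the endoplasmic reticulum run low, SCAP escorts the SREBP factors to the Golgi, proteases release their active part, and they switch on the enzymes of the pathway and lipoprotein uptake. When sterols are plentiful, INSIG proteins keep SCAP in place. T cells draw on this route for new membrane when they divide, and its isoprenoid intermediates also anchor small GTPases to membranes.

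The control regions of these genes are shown because shared SREBP control is the feature that groups them. Windows of 250 bases before the gene start (RefSeq, GRCm38.p6) were on hand for 5 of the 7 measured members, Hmgcs1, Idi1, Cyp51, Srebf2 and Insig1. On both strands the windows were searched for TCACNCCAC, a form of the sterol response element, for CCAAT, the box bound by NF-Y, and for GGGCGG, the box bound by Sp1. Those 2 factors are known partners of SREBPs. CCAAT was present in 5 of the 5 windows and GGGCGG in 5 of 5, against 33.8% and 32.7% of all 32851 windows in the table, and both together in 11.0% of all windows. TCACNCCAC was found in 1 of the 5, that of Hmgcs1, against 1.05% of all windows. Windows of Srebf1, left out of the 5, held CCAAT 1, 0 and 1 times and GGGCGG 0, 2 and 2 times, with TCACNCCAC at 0 in each. Among the other measured sterol enzymes, 11 had windows, 14 in all. Of these 14 windows, 11 held CCAAT, 11 held GGGCGG and 0 held TCACNCCAC. The windows of Hmgcs1 at chr13:119690101-119690350 (plus strand), Cyp51 at chr5:4104698-4104947 (minus strand) and Insig1 at chr5:28071162-28071411 (plus strand) follow, in the direction of the gene, with the matches in capitals. In Hmgcs1 the sterol element begins 137 bases before the start, with CCAAT boxes, on the opposite strand, whose matches begin 237, 176 and 45 bases before it.
Hmgcs1: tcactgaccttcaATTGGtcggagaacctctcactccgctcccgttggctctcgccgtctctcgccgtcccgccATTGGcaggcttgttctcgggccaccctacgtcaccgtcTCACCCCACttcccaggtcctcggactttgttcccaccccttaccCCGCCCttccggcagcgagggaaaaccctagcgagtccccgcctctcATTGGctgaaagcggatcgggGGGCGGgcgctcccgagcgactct
Cyp51: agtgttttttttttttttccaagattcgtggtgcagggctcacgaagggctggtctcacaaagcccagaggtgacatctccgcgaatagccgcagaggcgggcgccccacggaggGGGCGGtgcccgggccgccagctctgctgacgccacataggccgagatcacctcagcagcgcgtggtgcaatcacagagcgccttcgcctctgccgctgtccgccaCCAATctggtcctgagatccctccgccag
Insig1: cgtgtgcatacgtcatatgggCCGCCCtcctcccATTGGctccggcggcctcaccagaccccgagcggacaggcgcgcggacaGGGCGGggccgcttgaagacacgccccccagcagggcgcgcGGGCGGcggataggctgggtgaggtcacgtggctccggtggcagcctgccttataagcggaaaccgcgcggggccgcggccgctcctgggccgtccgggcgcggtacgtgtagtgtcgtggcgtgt
Cyp51 and Insig1 each hold 1 CCAAT box, and no base belonged to 2 matches in any measured member with a window. These matches describe letters in the reference genome, and binding was not measured.

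No member differed between the fractions past the threshold. Of 7 members 6 lay below 0 and 1, Insig1, above, with a median difference of -0.04 against -0.06 over all genes, where 11535 of 19494, or 59.2%, lay below 0. With each array centred on its median, Hmgcs1, Idi1 and Srebf2 turned above 0 and the members' median was 0.03, while with quantile normalization it was -0.13. Limma called 0 of 7 members (lowest adjusted p = 0.773 among them) and 0 of all 19494 genes, or 0%. At an unadjusted p under 0.05 it found 0 of 7 members and 1214 genes, or 6.23% of all. Sqle was the member that kept the fractions apart on all 6 arrays, and 13.3% of all genes did so in either direction.

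The arrays had medians of 6.49 to 6.64, and those numbered 1 had the narrowest spread of values (SD 1.63 in both fractions). Of the T cell genes 8 of 8 measured ranked above the median signal of all genes, as did 9 of 10 Treg genes, with Il2ra, which encodes CD25, the exception at 4.64 to 5.42. Signals of different probes are not on one scale, and the collagen gene Col1a1 ranked at the 85.6 percentile, so these ranks do not identify the cells. Gpr15 read 8.51, 9.12 and 8.70 in GPR15- samples 1, 5 and 6 but 8.23, 7.86 and 8.28 in those labelled GPR15+, which were thus the lower ones, by a difference of -0.65 ± 0.22 (SE, limma adjusted p = 0.773). Every direction here therefore rests on the labels. For Ptprc, which encodes CD45 on all leukocytes, the difference was 0.15 ± 0.22 (SE), turning to -0.05 without GPR15+ replicate 1. For Cd4 it was 0.14 ± 0.27 (SE), turning to -0.14 without GPR15- replicate 1 and to -0.012 when GPR15+ replicate 5 was left out.

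**Figure D1:**
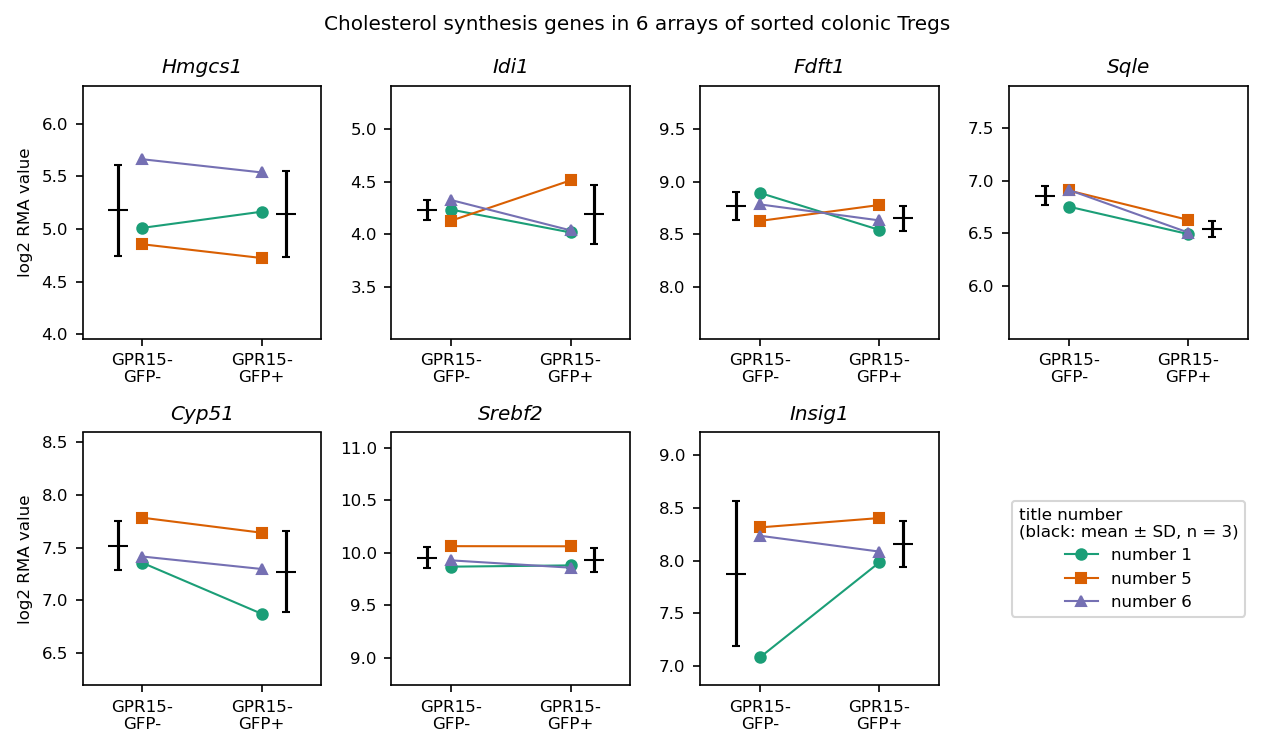
Log2 RMA values (vertical axis) of the 7 measured members in GPR15-GFP- and GPR15-GFP+ Tregs, with lines joining samples of equal title number and black marks giving mean ± SD (n = 3). Each panel spans 2.4 log2 units. The 3 GPR15+ arrays of Sqle all sit under the 3 GPR15- arrays, as for 9.17% of all genes. The wide spread of Insig1 comes with 1 low array, GPR15- number 1.

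The first member along the pathway is Hmgcs1, the cytosolic synthase that makes HMG-CoA. It read 5.01, 4.85 and 5.66 in GPR15- samples 1, 5 and 6 and 5.16, 4.72 and 5.54 in the GPR15+ samples. The number 6 was highest in both fractions and 5 lowest, and the fractions overlapped. The difference was -0.03 ± 0.29 (SE), and it was smaller than the SDs of 0.43 and 0.41 within the fractions. Its sign turned to 0.04 when arrays were centred on their medians, to 0.09 with quantile normalization and to 0.08 with cyclic loess. It was 0.21 once GPR15- replicate 6 was left out, or to 0.17 once GPR15+ replicate 5 was. Its level stood at the 19.8 percentile of all genes, and the files used here give no detection calls to tell such a level from background.

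Idi1 interconverts the pair of isoprene building blocks from which all later intermediates are made. Its row was dim, at 4.23, 4.13 and 4.32 in GPR15- samples and 4.02, 4.51 and 4.04 in GPR15+ samples, which placed it at the 6.05 percentile. Sample 5 was the highest of the GPR15+ arrays and the lowest of the GPR15- arrays, so the fractions overlapped. The difference of -0.04 ± 0.19 (SE) was made of -0.22, 0.38 and -0.29 in the pairs 1, 5 and 6. It turned to 0.03 with centring and to 0.05 with quantile normalization or with loess. Leaving out GPR15- replicate 6 gave 0.0071, GPR15+ replicate 1 gave 0.05, and GPR15+ replicate 6 gave 0.04.

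Fdft1, squalene synthase, commits isoprenoids to sterols. Its values were 8.89, 8.63 and 8.78 in GPR15- and 8.54, 8.78 and 8.63 in GPR15+ samples. The fractions overlapped, and the difference was -0.12 ± 0.16 (SE, limma adjusted p = 0.893), with 1 of 3 pairs, that numbered 5, above 0 at 0.15. It was -0.05 with GPR15- replicate 1 left out, -0.06 with GPR15+ replicate 1 left out, and -2.7e-04 with both left out, against -0.19 and -0.18 when GPR15- replicate 5 or GPR15+ replicate 5 was left out.

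Sqle, squalene epoxidase, adds the oxygen that cholesterol carries and is a known control point of the pathway. It read 6.75, 6.91 and 6.91 in GPR15- samples and 6.49, 6.63 and 6.51 in GPR15+ samples. All 3 GPR15+ arrays lay below all 3 GPR15- arrays, and 9.17% of all genes were separated in that direction. The means were 6.86 ± 0.09 (SD, n = 3) and 6.54 ± 0.07 (SD, n = 3). The difference of -0.32 ± 0.15 (SE), or 1.24-fold lower in GPR15+ samples, was composed of -0.26, -0.28 and -0.41 in the pairs. It did not pass over all genes (limma adjusted p = 0.773), and its 95% interval of -0.67 to 0.04 contained 0. The same sign in all 3 pairs was found for 2 of 7 members, Sqle and Cyp51, and for 37.0% of all genes. Both members lay below 0, as did 23.6% of all genes in every pair.

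Cyp51 removes a methyl group from lanosterol, the first sterol of the route. It read 7.36, 7.78 and 7.42 in GPR15- samples and 6.87, 7.64 and 7.30 in GPR15+ samples. Sample 5 was highest in both fractions, and the lowest GPR15+ array was number 1. The difference was -0.25 ± 0.24 (SE, limma adjusted p = 0.842), at -0.48, -0.14 and -0.12 in the pairs. It was -0.05 with GPR15+ replicate 1 left out, -0.12 with GPR15- replicate 5 left out and -0.43 with GPR15+ replicate 5 left out.

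Srebf2 encodes SREBP-2, the factor that mainly drives the cholesterol enzymes. Its values were nearly level over the 6 arrays, at 9.87, 10.06 and 9.93 in GPR15- and 9.88, 10.06 and 9.86 in GPR15+ samples. The fractions overlapped throughout, with a difference of -0.02 ± 0.16 (SE) and a 95% interval of -0.39 to 0.35, or 0.765-fold to 1.27-fold. The pairs differed by 0.01, -0.0012 and -0.07. The sign turned to 0.05 with centring, and it was 0.04 with GPR15- replicate 5 left out, 0.0071 with GPR15+ replicate 1 left out and 0.02 with GPR15+ replicate 6 left out. The mRNA does not show how much of the protein was cleaved, which is where sterols act.

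Insig1, the endoplasmic reticulum protein that retains SCAP and is itself an SREBP target, was the member with the widest spread. It read 7.08, 8.31 and 8.24 in GPR15- samples and 7.98, 8.40 and 8.08 in GPR15+ samples. The GPR15- array numbered 1 stood more than a log2 unit under the rest of its fraction, and the remaining 5 arrays lay between 7.98 and 8.40. The difference of 0.28 ± 0.33 (SE, limma adjusted p = 0.875) consisted of 0.90 in pair 1, 0.09 in pair 5 and -0.15 in pair 6. It turned to -0.12 without GPR15- replicate 1 and to -0.03 without both arrays numbered 1.

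**Figure D2:**
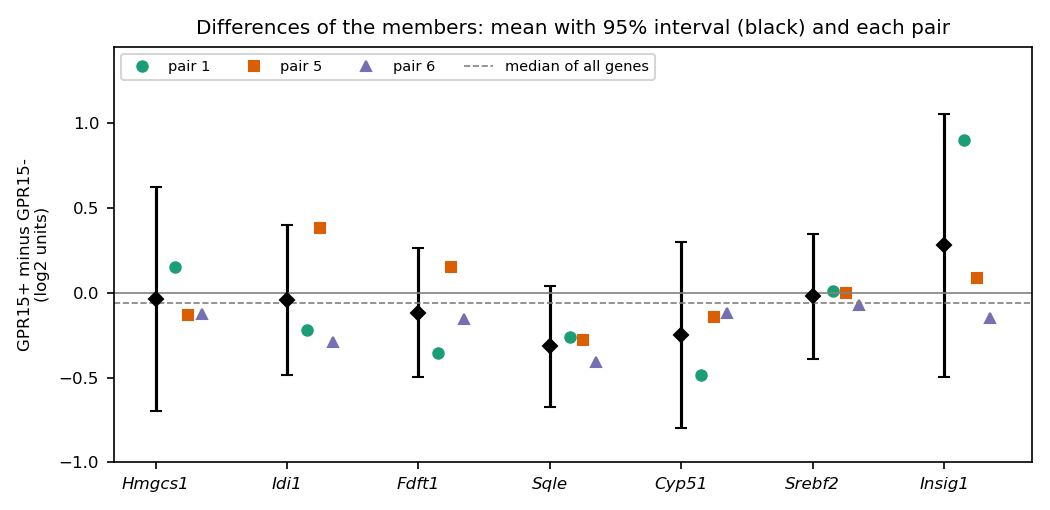
Difference of each member, GPR15+ minus GPR15- in log2 units (vertical axis), as the mean with its 95% interval from limma (black diamonds, n = 3 arrays a fraction) and as the 3 pairs of equal title number (coloured). All 7 intervals cross 0, and the dashed line marks the median of all genes at -0.06. The 3 pairs of Sqle and of Cyp51 lie below 0, as for 23.6% of all genes.

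Over the 6 arrays the members did not share 1 pattern. Of 21 pairs of members, 15 had a Pearson correlation above 0, with a median of 0.34 and a range from -0.66 (Hmgcs1 with Srebf2) to 0.80 (Cyp51 with Srebf2). Hmgcs1 ran against the mean of the other members (r = -0.28), and Srebf2 was the member closest to it (r = 0.57). These values describe 6 arrays that share title numbers and fractions, and no test was made of them. The mean of the members, each centred on its own mean, was lowest on both arrays numbered 1, at -0.13 (GPR15-) and -0.17 (GPR15+), against 0.08 and 0.16 on the other GPR15- arrays and 0.09 and -0.03 on the other GPR15+ arrays. The genes most like that mean among those above the median level were Elf2 (r = 0.99), Tnks (0.99), Polr3e (0.99), Timm22 (0.98) and Myo1e (0.98). Over 6 arrays the other 12 measured sterol enzymes had a median correlation with it of 0.26, from -0.73 to 0.72, against -0.12 over all 19487 genes outside the members. Of the 12, 7 correlated above 0, against 8444 of the 19487. All 12 ranked above the median level of all genes, and the part of level in these correlations was not tested.

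The rest of the sterol route was read from a list of the other enzymes, of which 12 had a row. Of these 12, 9 lay above 0 and 3 below, with a median of 0.15 against -0.06 over all genes. Limma called 0 of 12, and 1 of 12 had an unadjusted p under 0.05. By level, the median for all genes was -0.11 at 6 to 7 log2 units, -0.03 at 7 to 8, 0.08 at 8 to 9 and 0.10 at 9 to 10. These enzymes lay in each of those ranges, and the part of level in their median was not tested. The list's median was 0.09, 0.11 and 0.27 in the pairs 1, 5 and 6. It was 0.30 with GPR15+ replicate 1 left out and 0.07 with GPR15+ replicate 5 left out.

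Along the route the enzymes thus lay on both sides of 0. Mvk, which phosphorylates mevalonate, read 7.06, 7.54 and 7.21 in GPR15- samples and 7.46, 7.94 and 7.58 in GPR15+ samples. Each pair differed by a like amount, 0.40, 0.41 and 0.36, though the fractions overlapped, and the mean of 0.39 ± 0.21 (SE) did not pass (limma adjusted p = 0.773; 0.383 with the replicate number as a block). It was 0.25 with GPR15+ replicate 5 left out. Fdps, which makes farnesyl diphosphate, differed by 0.34 ± 0.28 (SE), with pair 1 at -0.30 and the pairs 5 and 6 at 0.60 and 0.71. It ranged from 0.13 with GPR15+ replicate 6 left out to 0.66 with GPR15+ replicate 1 left out. Lss, the lanosterol synthase between Sqle and Cyp51, lay at -0.29 and was picked for that place after its value was seen. Over the whole route 8 of 17 enzymes, members included, lay below 0, against 59.2% of all genes. Further on came Msmo1, a sterol methyl oxidase, at 6.61, 6.31 and 6.54 in GPR15- and 6.99, 7.47 and 6.80 in GPR15+ samples. Its fractions did not overlap, as was so in the higher direction for 4.12% of all genes, and the difference was 0.60 ± 0.22 (SE, limma adjusted p = 0.773). Nsdhl, a sterol dehydrogenase that acts with it, differed by 0.52 ± 0.31 (SE), at 0.61, 1.07 and -0.12 in the pairs, and by 0.18 with GPR15- replicate 5 left out or 0.80 with GPR15- replicate 6 left out. Hsd17b7, the reductase of the same complex, lay at -0.30 ± 0.32 (SE), at 0.21, -1.04 and -0.06 in the pairs, and was -0.63 with GPR15- replicate 1 left out, -0.011 with GPR15- replicate 5, -0.47 with GPR15+ replicate 6, and 0.08 without both arrays numbered 5.

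**Figure D3:**
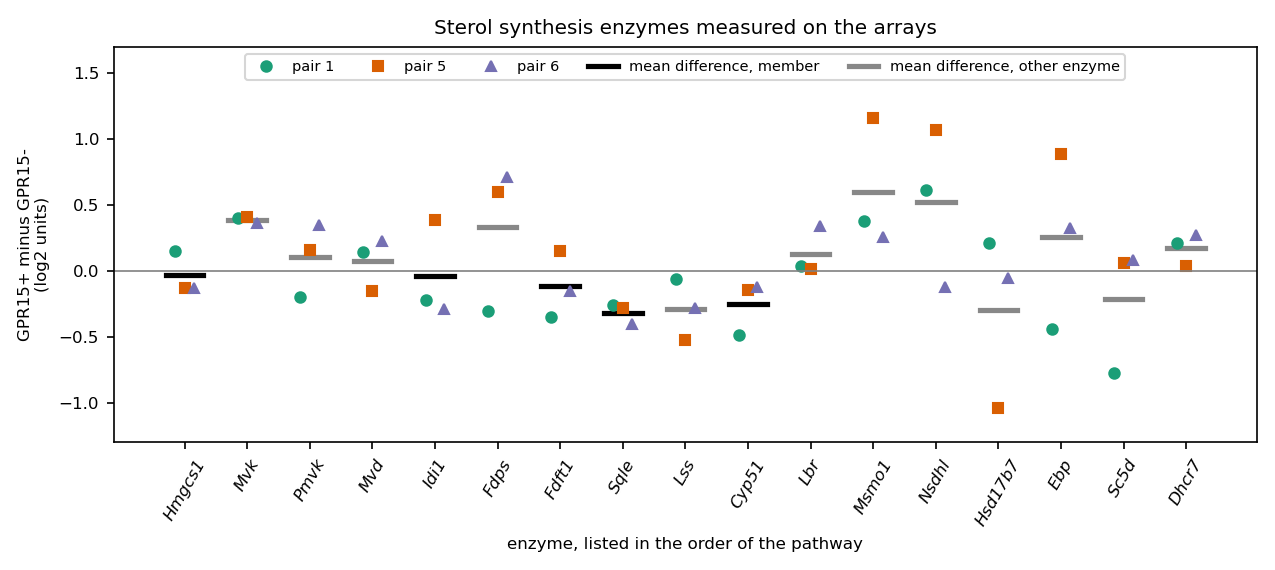
Difference, GPR15+ minus GPR15- in log2 units (vertical axis), of the 17 measured sterol synthesis enzymes in the order of the route, with bars for the mean (black for members, grey for other enzymes) and points for the 3 pairs. Of the 17 bars 9 lie above 0 and 8 below, and 0 of the 17 passed limma's threshold over all genes. All 3 pairs lie on one side of 0 for 7 of the 17, near the 37.0% of all genes.

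Genes that process SREBPs were likewise split. Of 7 measured besides the members, 4 lay above 0 and 3 below, with a median of 0.0046, which took either sign as single arrays were left out (-0.09 with GPR15+ replicate 5, 0.11 with GPR15+ replicate 1). Limma called 0, with 1 of 7 at an unadjusted p under 0.05. Mbtps1, the first protease to cut SREBPs in the Golgi, read 8.57, 8.55 and 8.84 in GPR15- and 8.88, 9.30 and 9.09 in GPR15+ samples. These did not overlap, as for 4.12% of all genes in the higher direction, and Mbtps1 differed by 0.44 ± 0.18 (SE, limma adjusted p = 0.773). Scap, the escort protein, differed by -0.16 ± 0.16 (SE), below 0 in all 3 pairs like 23.6% of all genes, and by -0.08 with GPR15- replicate 5 left out. Pgrmc1, a haem-binding membrane protein, lay at -0.60 ± 0.29 (SE), with -1.47 in pair 1 against -0.08 and -0.26 in the pairs 5 and 6, and at -0.28 with GPR15+ replicate 1 left out. Rnf145, an E3 ligase, lay at 0.19, or at 0.07 with GPR15+ replicate 1 left out. Ubxn1, an adaptor of protein degradation, lay at 0.22, but at 0.06 with GPR15- replicate 1 left out, 0.08 with GPR15+ replicate 6, 0.36 with GPR15- replicate 6 and 0.41 with GPR15+ replicate 1.

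The isoprenoid branches outside sterols were measured for 9 genes, of which 5 lay above 0 and 4 below. The median of 0.09 turned to -0.17 with GPR15+ replicate 5 left out and was 0.35 with GPR15+ replicate 1 left out. Limma called 0, with 1 of 9 at an unadjusted p under 0.05. Dhdds, a subunit of the enzyme that makes dolichol for glycoproteins, differed alike in the pairs, by 0.49, 0.53 and 0.55, with GPR15- samples at 6.85, 7.26 and 6.98 and GPR15+ samples at 7.33, 7.79 and 7.53. Its fractions did not overlap, as was so in the higher direction for 4.12% of all genes. The difference of 0.52 ± 0.19 (SE) had a limma adjusted p of 0.773, or 0.334 with the replicate block. Ggps1, which makes geranylgeranyl diphosphate, lay at -0.34 in pair 1 and at 1.15 and 0.99 in the others. Its mean of 0.60 became 1.21 with GPR15+ replicate 1 left out, 0.27 with GPR15+ replicate 5 and 0.32 with GPR15+ replicate 6. Rabggta, a subunit of a transferase that attaches this lipid to Rab proteins, differed by 0.49 ± 0.33 (SE), made of -0.11, 1.18 and 0.39 in the pairs. With GPR15+ replicate 1 left out it was 0.86, and with GPR15+ replicate 5 left out 0.16. Pdss2, which builds the ubiquinone tail, lay at -0.53 ± 0.23 (SE), or at -0.33 with GPR15- replicate 1 left out, and Pggt1b, a prenyltransferase subunit, at -0.25 ± 0.16 (SE).

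Lipoprotein uptake and the export of its cholesterol from lysosomes were measured for 13 genes, 9 above 0 and 4 below, with a median of 0.02. Limma called 0, with 0 of 13 at an unadjusted p under 0.05. Vldlr, a lipoprotein receptor, lay lower on all 3 GPR15+ arrays, at 6.57, 6.35 and 6.36 against 6.77, 6.70 and 6.69, a difference of -0.29 ± 0.16 (SE, limma adjusted p = 0.773). Of all genes, 9.17% were separated in that direction. Npc1 and Npc2, which pass cholesterol out of the lysosome in turn, both differed by 0.46. Npc1 was above 0 in all 3 pairs, like 13.4% of all genes, at 0.84, 0.33 and 0.22. Npc2 lay at -0.56 in pair 1 and at 1.18 and 0.77 in the pairs 5 and 6. With GPR15+ replicate 1 left out Npc1 lay at 0.13 and Npc2 at 0.86, and Npc2 lay at 0.26 with GPR15+ replicate 5 left out. The sterol transfer genes Stard3 and Stard5 both differed by 0.29. Stard3 turned to -0.22 without GPR15- replicate 1 and was 0.61 without GPR15- replicate 5. Stard5 turned to -0.0045 without GPR15+ replicate 1 and was 0.58 without GPR15+ replicate 6.

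Efflux and oxysterol genes lay below 0 in 7 of 11, near the 59.2% of all genes. Enzymes of cholesterol esterification were not analysed here. The list's median of -0.12 was -0.0036 with quantile normalization and 0.0014 with cyclic loess, and -0.33 with GPR15+ replicate 1 left out. Limma called 0, with 1 of 11 at an unadjusted p under 0.05. Apoe, the carrier apolipoprotein that macrophages make in quantity, read 8.18, 8.15 and 8.25 in GPR15- samples and 8.08, 7.50 and 7.34 in GPR15+ samples. The fractions did not overlap, as was so in the lower direction for 9.17% of all genes. The difference was -0.55 ± 0.22 (SE, limma adjusted p = 0.773), and pair 1 differed least, at -0.10. Abca1, the exporter of cholesterol, lay at -0.33 ± 0.20 (SE), or -0.19 with GPR15- replicate 5 left out. Ch25h, which makes an oxysterol, lay at -0.30 ± 0.19 (SE), or -0.15 with GPR15- replicate 1 left out. Hsd3b7, an enzyme of oxysterol breakdown, lay at -0.30, and Osbpl9, an oxysterol-binding protein, at 0.36, with 0.34, 0.36 and 0.38 in the pairs. Osbpl9 lay at 0.15 with GPR15- replicate 1 left out and at 0.58 with GPR15+ replicate 1 left out.

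Fatty acid genes under SREBP control were measured for 13 genes, 6 above 0 and 7 below, with a median of -0.02, which was 0.05 with arrays centred and 0.09 with GPR15+ replicate 1 left out. Limma called 0, with 1 of 13, Elovl6, at an unadjusted p under 0.05. Elovl6, an elongase of fatty acids, stood apart within the list, at 8.79, 8.93 and 8.62 in GPR15- and 9.54, 9.86 and 10.05 in GPR15+ samples, a difference of 1.04 ± 0.19 (SE, limma adjusted p = 0.773). Acly, which supplies cytosolic acetyl-CoA to both routes, differed by 0.32 ± 0.17 (SE), and Acaca, the first enzyme of fatty acid synthesis, by 0.27 ± 0.21 (SE), or 0.10 with GPR15+ replicate 5 left out. Fasn, fatty acid synthase, lay at -0.27 ± 0.33 (SE), turned to 0.09 without GPR15+ replicate 1, and was -0.51 without GPR15+ replicate 6. Lpin1, a phosphatidate phosphatase, lay at 0.26, made of 0.70, -0.12 and 0.20 in the pairs, and at 0.04 with GPR15+ replicate 1 left out.

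**Figure D4:**
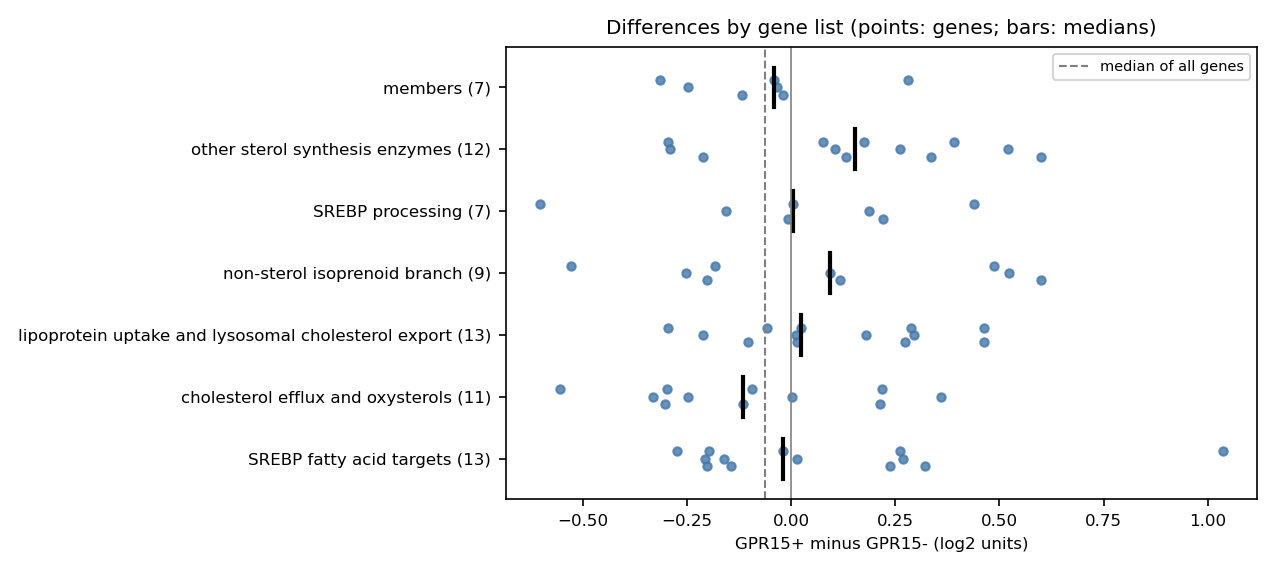
Difference, GPR15+ minus GPR15- in log2 units (horizontal axis), of each measured gene in the members and the 6 surrounding lists (members left out of those), with black bars for medians and a dashed line for the median of all genes at -0.06. List medians lie between -0.12 and 0.15, and Elovl6 at 1.04 is the point farthest from 0.

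Markers of cell types and of division are read against the 59.2% of all genes that lay below 0. Over all genes the median difference was -0.13 at 5 to 6 log2 units and -0.11 at 6 to 7, against 0.08 at 8 to 9. Of the epithelial markers 5 of 17 ranked above the median level of all genes, as did 3 of 11 macrophage markers. So did 1 of 8 B and plasma cell markers, 3 of 11 of fibroblasts and endothelium, and 10 of 15 cell cycle genes. The part of level in the counts that follow was not tested. Treg genes themselves lay below 0 in 7 of 10 and T cell genes in 3 of 8. Epithelial markers lay below 0 in 13 of 17, with list means of 6.22 to 6.46 on GPR15- arrays and 5.99 to 6.32 on GPR15+ arrays. Macrophage markers lay below 0 in 9 of 11 (6.01 to 6.32 against 5.91 to 6.38), and B and plasma cell markers in 6 of 8 (6.06 to 6.31 against 5.67 to 5.97). Markers of fibroblasts and endothelium lay below 0 in 9 of 11 (6.18 to 6.40 against 6.10 to 6.44), and genes of the cell cycle in 10 of 15 (7.06 to 7.14 against 6.82 to 7.03). No marker has a true 0 on this scale, and limma called none of them, with at most 3 a list at an unadjusted p under 0.05. The part of these cells and of division in the values of Sqle and Apoe was not tested, and in sorted bulk samples a change in the mix of cells and a change within cells cannot be told apart.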

How the data were processed

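Expression was measured on 6 one-colour Affymetrix arrays, 3 per fraction. The values used are the authors' RMA output, deposited on a log2 scale per probe set, per the submitters' processing notes; the software version and genome build are not given in the sources used here. Of 22142 rows, 19527 had 1 gene symbol in the platform annotation, 0 several and 2615 none. The highest-mean row was kept for the 33 genes with several rows, which left 19494 genes. The test was limma (version 3.58.1, R version 4.3.3; lmFit and eBayes without a block), 2-sided, adjusted by Benjamini-Hochberg over all genes at 0.05, on scripts tested on simulated data. An exact permutation test of 3 against 3 arrays cannot go below 0.1, so none was run. The labels do not say whether samples came from separate animals, so p-values measure the spread between these samples. The title numbers were treated as pairs, since like-numbered samples deviated together from their fraction means (r = 0.567 for number 1, 0.381 for 5 and 0.319 for 6, each above the 0.1 required). The pairing enters the pair differences and the block alternative, while the main SEs, intervals and p-values leave it out. Numbers 5 and 6 were less distinct, with GPR15- 6 and GPR15+ 5 at 0.315 and GPR15- 5 and GPR15+ 6 at 0.213. Both values also lie above 0.1, so this check set number 1 apart but did not tell 5 from 6. The members, lists and tests were chosen with earlier results of these data known. From each list up to 5 genes were named, first any called, then those with the largest difference; Lss, Il2ra and the likeness genes came outside that or by their own rule (the 5 highest correlations). Alternatives covered array scaling, the intensity trend, a filter on the dimmest 40% of genes, the variance model, array weights, the block, row choice and each array or number left out. Motif matches were counted in RefSeq promoter windows.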

Additional observations from a re-analysis of the deposited data

How the results depend on the processing

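Members stayed uncalled by limma under every alternative run. Over all genes, 0 were called in each alternative except limma's array weights, which called 2174 of 19494. Their estimation stopped before convergence and gave GPR15+ replicate 6 a weight of 6.56 and GPR15+ replicate 1 a weight of 0.19. With weights by the gene-by-gene method, chosen after seeing the data, 2 genes were called. Under the first weights the named genes Gpr15, Fdps, Ggps1, Dhdds, Npc2, Apoe, Abca1 and Elovl6 passed. Apart from Gpr15, these had been named for the size of their differences. Sqle, the member closest to the threshold, did not, at -0.37 (limma adjusted p = 0.0557). Those weights turned Hmgcs1 to 0.18, Cd4 to -0.13, Stard3 to -0.15, Stard5 to -0.088, Fasn to 0.038 and the uptake median to -0.088, with the efflux median at -0.33. The gene-by-gene weights turned Hmgcs1 to 0.050, Cd4 to -0.036 and Stard3 to -0.053, with the efflux median at -0.32. With the replicate block 0 genes were called (smallest limma adjusted p = 0.0750, with 2411 genes or 12.4% at an unadjusted p under 0.05 against 1214 without it), and it changed no other call. Centring gave Hmgcs1 0.035, Idi1 0.029, Srebf2 0.050 and medians of 0.029 for the members, 0.050 for fatty acid targets, 0.093 for uptake and -0.046 for efflux. Quantile normalization gave Hmgcs1 0.089, Idi1 0.049 and medians of -0.13 for the members and -0.0036 for efflux. Cyclic loess gave Hmgcs1 0.077, Idi1 0.050 and medians of -0.11 for the members, 0.10 for uptake and 0.0014 for efflux. Without the dimmest 40% of genes, which removed Hmgcs1 and Idi1, the median of SREBP processing was 0.19 and that of efflux -0.017, over fewer genes. With 1 array or 1 number left out, differences went from -0.23 to 0.21 for Hmgcs1, from -0.25 to 0.083 for Idi1, from -0.25 to -2.7e-04 for Fdft1, from -0.37 to -0.27 for Sqle, from -0.43 to -0.05 for Cyp51, from -0.084 to 0.035 for Srebf2 and from -0.12 to 0.50 for Insig1. They went from -0.14 to 0.34 for Cd4, from -0.049 to 0.33 for Ptprc, from -0.22 to 0.61 for Stard3, from -0.0045 to 0.58 for Stard5, from -0.51 to 0.089 for Fasn and from -0.63 to 0.077 for Hsd17b7. Medians went from -0.25 to 0.0054 for the members, from 0.067 to 0.30 for the other sterol enzymes, from -0.13 to 0.11 for SREBP processing, from -0.21 to 0.37 for the isoprenoid branch, from -0.0071 to 0.16 for uptake, from -0.33 to -0.10 for efflux and from -0.069 to 0.089 for fatty acid targets. Where a sign turned, the cause was not tested.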
